A study of Homo sapiens with 12 samples.

Results

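The genes described here are 46 that encode the machinery of glycolysis, pyruvate use, the citrate cycle and the pentose phosphate pathway, chosen by name from the 34643 gene symbols of a transcriptome table of LNCaP cells. LNCaP is a human prostate cancer line of luminal type whose growth responds to androgen. All cells had been transduced with lentivirus that drives a short hairpin RNA from the U6 promoter and had been kept under puromycin, with either a scrambled hairpin (sh_scramble) or a hairpin against TMEFF2, a transmembrane protein of prostate and brain (sh_TMEFF2). About 2.5 weeks after transduction all cells spent 24 h in medium with charcoal-stripped serum, which lacks androgen, and then 24 h with 10 nM dihydrotestosterone (+DHT), the most potent natural androgen, or with ethanol vehicle (-DHT). Each of the 4 groups held 3 libraries, made from independent treatments and extractions that came from 2 transductions, and the labels do not say which library came from which.

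Cells take up glucose through the GLUT carriers, trap it with hexokinase and split it to pyruvate. Pyruvate is either reduced to lactate or carried into the mitochondrion, where pyruvate dehydrogenase feeds the citrate cycle, and the pentose phosphate pathway branches off early to make NADPH and ribose. Prostate epithelium is known for exporting citrate rather than burning it, and androgen is a known regulator of metabolism in prostate cancer cells. The 46 genes were ordered by step: 4 for glucose entry, 12 glycolytic enzymes, 3 that control glycolysis, 3 for lactate and monocarboxylates, 9 for pyruvate entry, 12 for the citrate cycle and its NADP and NAD forms, and 3 for the pentose phosphate pathway.

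Levels are given as CPM, estimated counts scaled to a common library size after TMM normalization, and since CPM is not scaled by gene length they were compared between groups and not between genes. Library totals lay between 19450866 and 22612046 estimated counts. All 46 members had a row and 45 were tested. PDK4, which encodes a pyruvate dehydrogenase kinase, had 0 to 3 counts per library and failed the low-count filter. Differences are log2 fold changes with their standard error (SE), tested with edgeR's quasi-likelihood test over 15419 genes. A gene passed at a Benjamini-Hochberg adjusted p of 0.05, and was called when the change was also at least 1.5-fold. TMEFF2 itself lay between 39.3 and 103 CPM in the 6 -DHT libraries of both lines and between 90.1 and 173 CPM in the 6 +DHT libraries. Its ranges overlapped between the lines with and without DHT. TMEFF2 rose with DHT by a log2 fold change of 0.85 (SE 0.25, adjusted p = 0.023) in sh_scramble and 0.87 (SE 0.25, adjusted p = 0.038) in sh_TMEFF2. Its log2 fold change in sh_TMEFF2 against sh_scramble was -0.43 (SE 0.25, adjusted p = 0.5) without DHT and -0.41 (SE 0.25, adjusted p = 0.3) with DHT. The 8 luminal prostate markers summed to 4327 to 14490.5 CPM, highest in sh_scramble +DHT (13079 to 14490.5 CPM) and 5157 to 6539 CPM in sh_TMEFF2 +DHT, so this sum moved with the groups. The 4 basal markers summed to 0.196 to 0.407 CPM in sh_scramble -DHT, 1.17 to 1.92 CPM in sh_scramble +DHT, 0.31 to 0.673 CPM in sh_TMEFF2 -DHT and 0.231 to 0.548 CPM in sh_TMEFF2 +DHT, with KRT5 at 0 in every library. The 1 basal marker tested, KRT14, passed as higher with DHT in sh_scramble (adjusted p = 0.0022) and as lower in sh_TMEFF2 with DHT (adjusted p = 0.025), with 0 to 29 counts per library. The part of these markers in the results was not tested. Markers of other cell types were low, with 13.0 to 35.7 CPM in sum for fibroblasts, 7.86 to 12.6 CPM for leukocytes and 13.3 to 29.5 CPM for endothelium. Exons of 27 of the 46 members overlap another annotated gene, and 14 members have numbered pseudogenes that hold counts, each at most 0.501% of the member's own apart from those of SLC2A3. In these bulk libraries fewer cells of a kind and less RNA per cell cannot be told apart.

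In sh_scramble cells, DHT raised all 4 glucose entry genes and some members of other steps. It left most enzymes of the glycolytic chain and most genes of pyruvate entry without a passing change. MPC2, a subunit of the mitochondrial pyruvate carrier, rose 3.1-fold and IDH1, the cytosolic NADP-dependent isocitrate dehydrogenase, rose 2.45-fold. Altogether 11 of the 45 members tested rose, where 14.4% of all genes did, and 2 fell, where 12.6% of all genes did. At 1.5-fold or more 6 were called, beside 11.9% of all genes in either direction. The shares of members were 24.4% higher and 4.44% lower, and their median log2 fold change was 0.14, beside -0.01 over all genes tested. The 11 became 19 with the replicate number as a block and 17 without sh_scramble -DHT replicate 3. With library size alone as the scaling the split was 10 higher and 4 lower.

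In sh_TMEFF2 cells, 5 members rose with DHT (7.84% of all genes did) and 0 fell (5.21% did), and 2 were called (4.88% of all genes). The median over the members was 0.08 and over all genes -0.02. The 5 became 2 without sh_TMEFF2 -DHT replicate 1 or sh_TMEFF2 +DHT replicate 3, and 3 without sh_TMEFF2 -DHT replicate 2. With the replicate number as a block the 5 became 11. The 2 called became 3 by DESeq2 and 1 without replicate 1 or replicate 2 of sh_TMEFF2 -DHT. Without DHT the lines differed at 1 member, IDH2, which was higher in sh_TMEFF2 (0.623% of all genes were), none of the 45 was lower (0.493%) and none was called (0.571%). With DHT, 10 members were lower in sh_TMEFF2 than in sh_scramble (9.09% of all genes were), 0 were higher (6.93%) and 6 were called (6.77%). The 10 became 16 with the replicate number as a block and 5 without sh_TMEFF2 +DHT replicate 2. With library size alone the split was 9 lower and 3 higher. The change with DHT differed between the lines, by the interaction term, for 5 members, all with a smaller or opposite change in sh_TMEFF2 (3.29% of all genes lower), and for 0 in the other direction (1.65%). The comparison of the lines with DHT and the DHT comparison in sh_scramble share the 3 sh_scramble +DHT libraries, so a value high in those libraries enters both. Where edgeR passed 0 members, the counts at an unadjusted p of 0.05 and by DESeq2 and limma-voom after adjustment were 2, 1 and 0 for lower with DHT in sh_TMEFF2, 6, 1 and 0 for lower in sh_TMEFF2 without DHT, 4, 1 and 0 for higher in sh_TMEFF2 with DHT, and 0, 0 and 0 for a larger change in sh_TMEFF2.

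**Figure D1:**
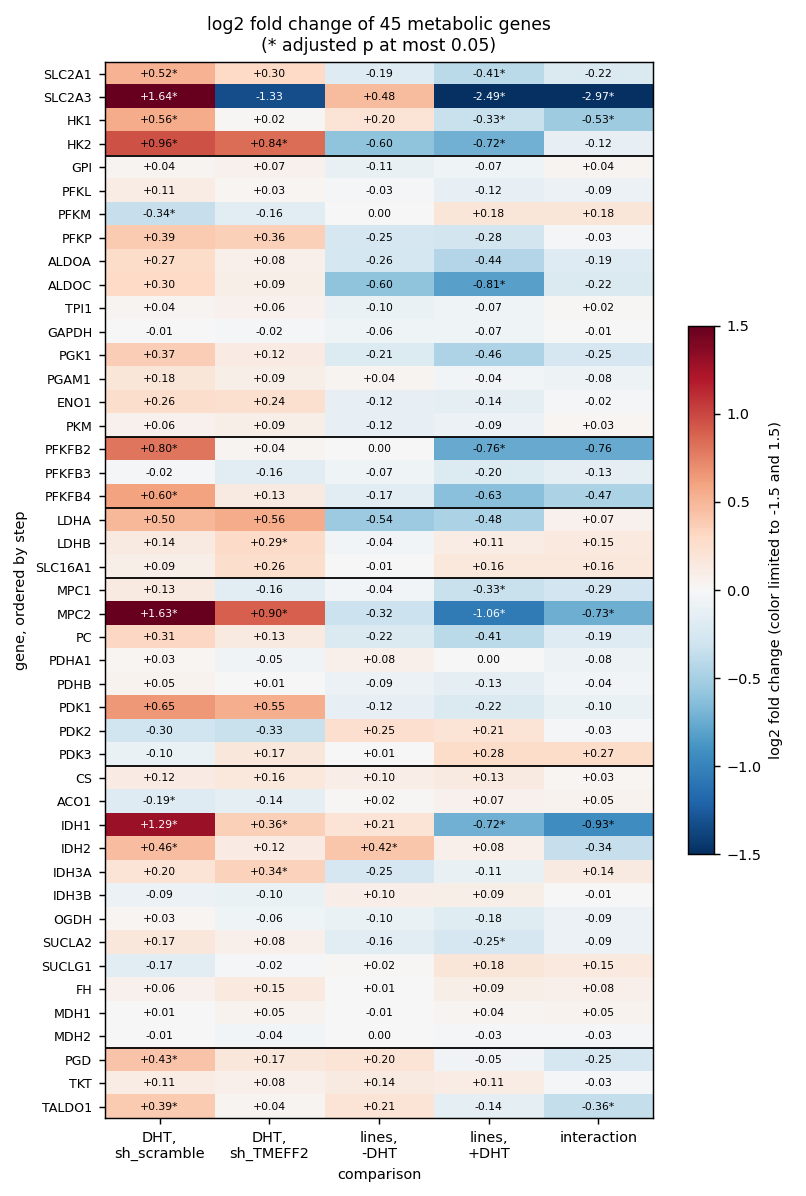
Heat map of the log2 fold change of the 45 members tested (rows, ordered by step, steps parted by lines) in the 5 comparisons (columns), with the value in each cell and an asterisk where the adjusted p was at most 0.05. Asterisks in the first column stand at all 4 glucose entry genes, at PFKFB2, PFKFB4, MPC2, IDH1, IDH2, PGD and TALDO1 and at ACO1, which was lower, and at only 1 of the 12 glycolytic enzymes, PFKM, which was lower.

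MPC2 and IDH1 changed most firmly, and their promoter windows are shown because both passed with DHT in each line under every alternative setting. MPC2 lies at chr1:167916675-167937072 on the minus strand and IDH1 at chr2:208236229-208266074 on the minus strand (GRCh38, GENCODE 44). RefSeq (GRCh38.p14) gives 300 bases around each start it lists for a gene, 250 before and 50 after. The first window of each gene lies inside the bounds above and not at the outer gene start. These windows read as follows, 5′ to 3′, with ACGTG or its reverse complement CACGT, the core of the hypoxia response element, in capitals.
MPC2 promoter, chr1:167935947-167936246, minus strand: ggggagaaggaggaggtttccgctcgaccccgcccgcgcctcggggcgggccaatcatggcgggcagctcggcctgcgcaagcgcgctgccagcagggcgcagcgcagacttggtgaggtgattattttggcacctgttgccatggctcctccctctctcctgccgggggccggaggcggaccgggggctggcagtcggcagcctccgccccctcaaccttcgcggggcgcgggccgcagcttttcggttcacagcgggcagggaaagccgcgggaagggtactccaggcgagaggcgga
IDH1 promoter, chr2:208254409-208254708, minus strand: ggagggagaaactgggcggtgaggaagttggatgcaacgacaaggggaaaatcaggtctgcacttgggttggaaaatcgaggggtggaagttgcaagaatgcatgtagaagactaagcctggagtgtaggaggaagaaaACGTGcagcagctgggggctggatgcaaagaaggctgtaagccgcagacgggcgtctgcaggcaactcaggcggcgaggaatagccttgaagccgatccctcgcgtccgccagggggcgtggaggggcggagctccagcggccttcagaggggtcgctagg
The letters AGAACA or TGTTCT, a half-site that the androgen receptor can bind, are in none of the 3 MPC2 and 2 IDH1 windows. Over all members with an entry they are in 8 of 72 windows (11.1%), beside 14.8% of the 35116 windows in the table. The IDH1 window shown holds 1 ACGTG and the second IDH1 window holds 0, as do the MPC2 windows. A match or its absence within these windows describes letters only.

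MPC2 was at 227, 226 and 201 CPM in sh_scramble -DHT and at 699.7, 694 and 639 CPM in sh_scramble +DHT. In sh_TMEFF2 it was at 175, 172 and 176 CPM without DHT and at 281, 328 and 369 CPM with DHT. All 3 +DHT libraries exceeded all 3 -DHT libraries in each line, and every sh_TMEFF2 +DHT library lay below every sh_scramble +DHT library. The log2 fold change with DHT was 1.63 (SE 0.089, adjusted p = 1.2e-07) in sh_scramble and 0.90 (SE 0.088, adjusted p = 0.00015) in sh_TMEFF2. The difference of these changes was -0.73 (SE 0.12, adjusted p = 0.0049). With DHT, MPC2 was lower in sh_TMEFF2 by a log2 fold change of -1.06 (SE 0.087, adjusted p = 8.6e-06), and without DHT the value was -0.32 (adjusted p = 0.11). DCAF6, whose exons overlap those of MPC2 on the other strand, also rose with DHT, by 0.67 in sh_scramble (adjusted p = 3.2e-05) and 0.30 in sh_TMEFF2 (adjusted p = 0.019), and its interaction value was -0.36 (adjusted p = 0.068). The deposited values carry no strand, so reads of the shared exons cannot be told apart.

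MPC1, the partner of MPC2 in the carrier, had no passing change with DHT in either line. It lay between 21.7 and 27.5 CPM in all 6 sh_scramble libraries, with a log2 fold change of 0.13 (SE 0.086, adjusted p = 0.28) with DHT. In sh_TMEFF2 the value was -0.16 (SE 0.086, adjusted p = 0.26), and with DHT MPC1 was the lower in sh_TMEFF2, at -0.33 against sh_scramble (SE 0.086, adjusted p = 0.02). That last call was lost in 6 of 22 alternatives. Of the other genes of pyruvate entry none passed in the fit over all libraries: PC, the pyruvate carboxylase, had 0.31 with DHT in sh_scramble, the dehydrogenase subunits PDHA1 and PDHB had 0.03 and 0.05, and the kinases PDK1, PDK2 and PDK3, which switch the dehydrogenase off, had 0.65, -0.30 and -0.10. PDK1 (SE 0.25, adjusted p = 0.072) passed as higher there in 5 of 22 alternatives, among them limma-voom (adjusted p = 0.044). PDK2 (SE 0.12, adjusted p = 0.082) passed there as lower in some alternatives, among them the 6 libraries of that comparison alone (adjusted p = 0.028). PC had -0.41 (SE 0.14, adjusted p = 0.062) between the lines with DHT and passed as lower in 6 of 22, among them DESeq2 (adjusted p = 0.031).

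IDH1 was at 276, 295 and 273 CPM in sh_scramble -DHT and at 719.5, 708 and 643 CPM in sh_scramble +DHT. In sh_TMEFF2 it was at 338, 339 and 302 CPM without DHT and at 404, 425 and 431 CPM with DHT. The ranges did not overlap between any of the 4 pairs of groups compared. The log2 fold change with DHT was 1.29 (SE 0.065, adjusted p = 7.3e-08) in sh_scramble and 0.36 (SE 0.064, adjusted p = 0.0037) in sh_TMEFF2. The difference of the changes was -0.93 (SE 0.091, adjusted p = 0.00017), the smallest adjusted p for this term among the members. With DHT, IDH1 was lower in sh_TMEFF2 by -0.72 (SE 0.064, adjusted p = 1.5e-05).

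The other isocitrate dehydrogenases moved by less. IDH2, the mitochondrial NADP form, ran from 119 to 127 CPM in sh_scramble -DHT and from 153 to 182 CPM in sh_scramble +DHT (log2 fold change 0.46, SE 0.068, adjusted p = 0.00031). It was at 159.9 to 169.7 CPM in sh_TMEFF2 -DHT, already above sh_scramble -DHT (0.42, SE 0.068, adjusted p = 0.014), and at 171 to 186 CPM in sh_TMEFF2 +DHT (change with DHT 0.12, SE 0.067, adjusted p = 0.28). The difference of the IDH2 changes was -0.34 (SE 0.096, adjusted p = 0.067), which did not pass. It passed by DESeq2 (adjusted p = 0.02) and without sh_scramble +DHT replicate 2 (adjusted p = 0.029). The call for IDH2 between the lines without DHT was lost when sh_scramble -DHT replicate 1 or sh_TMEFF2 -DHT replicate 2 was left out. IDH3A, a subunit of the NAD form that runs the citrate cycle, rose with DHT in sh_TMEFF2 (0.34, SE 0.081, adjusted p = 0.017), and in sh_scramble its value was 0.20 (SE 0.08, adjusted p = 0.09). The call for IDH3A was lost in 4 of 22 alternatives, and with the first column of each library only the value was 0.20 (adjusted p = 0.28). IDH3B, another subunit, passed in no comparison.

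Most of the citrate cycle itself stayed within a narrow band. Of its 12 members, IDH1 and IDH2 rose with DHT in sh_scramble and ACO1, the cytosolic aconitase that also acts as an iron sensor, fell by 0.19 (SE 0.064, adjusted p = 0.044), a call lost in 14 of 22 alternatives. The remaining 9 did not pass there, among them citrate synthase CS (0.12), fumarase FH (0.06) and the malate dehydrogenases MDH1 (0.01) and MDH2 (-0.01). With DHT, SUCLA2, a subunit of succinyl-CoA ligase, was lower in sh_TMEFF2 (-0.25, SE 0.062, adjusted p = 0.015), lost in 5 of 22 alternatives. These genes were also measured with little error: the SE of the log2 fold change in sh_scramble ran from 0.05 to 0.094 over the 12, beside a median of 0.125 over all genes tested. Some of the 9 passed under alternatives. In sh_scramble DESeq2 passed SUCLA2 as higher with DHT (0.18, adjusted p = 0.038). A filter of mean above 5 CPM passed SUCLG1 there as lower (-0.19, adjusted p = 0.029). In sh_TMEFF2 DESeq2 passed CS as higher with DHT (0.17, adjusted p = 0.016). Between the lines with DHT, that filter passed CS and SUCLG1 as higher in sh_TMEFF2 (adjusted p = 0.049 and 0.034).

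All 4 glucose entry genes rose with DHT in sh_scramble, and with DHT all 4 were lower in sh_TMEFF2. HK1, the widespread hexokinase, was at 142, 129.6 and 137 CPM in sh_scramble -DHT and at 189.6, 215 and 197 CPM in sh_scramble +DHT. In sh_TMEFF2 it was at 153, 168 and 151 CPM without DHT and at 149, 156 and 174 CPM with DHT. The sh_scramble groups stood apart and the sh_TMEFF2 groups overlapped. Its log2 fold change with DHT was 0.56 (SE 0.075, adjusted p = 0.00015) in sh_scramble and 0.02 (SE 0.075, adjusted p = 0.89) in sh_TMEFF2, a difference of -0.53 (SE 0.11, adjusted p = 0.013). With DHT it was lower in sh_TMEFF2 by -0.33 (SE 0.075, adjusted p = 0.01), and leaving out sh_scramble +DHT replicate 2 took the adjusted p of that comparison to 0.053.

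HK2, the hexokinase linked to high glycolysis in tumours, rose with DHT in both lines. It was at 34.9, 43.5 and 68.6 CPM in sh_scramble -DHT and at 84.4, 91.2 and 111 CPM in sh_scramble +DHT. In sh_TMEFF2 it was at 30.6, 27.8 and 38.8 CPM without DHT and at 51.4, 55 and 67.6 CPM with DHT. Replicate 3 was the highest in each of the 4 groups, and the DHT groups did not overlap in either line. The log2 fold changes with DHT were 0.96 (SE 0.21, adjusted p = 0.0048) and 0.84 (SE 0.21, adjusted p = 0.023), and their difference was -0.12 (SE 0.3, adjusted p = 0.89). The call in sh_TMEFF2 was lost without sh_TMEFF2 -DHT replicate 1 or 2 or sh_TMEFF2 +DHT replicate 3, with an adjusted p of up to 0.096. HK2 was lower in sh_TMEFF2 +DHT than in sh_scramble +DHT (-0.72, SE 0.21, adjusted p = 0.035), a call lost in 7 of 22 alternatives.

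SLC2A1, the GLUT1 carrier, ran from 38.3 to 48.3 CPM in sh_scramble -DHT and from 58.3 to 68.6 CPM in sh_scramble +DHT (log2 fold change 0.52, SE 0.097, adjusted p = 0.0016). In sh_TMEFF2 it ran from 36.6 to 41.2 CPM and from 44.1 to 50.7 CPM (0.30, SE 0.097, adjusted p = 0.064). DESeq2 passed that rise (0.31, adjusted p = 0.027). With DHT SLC2A1 was lower in sh_TMEFF2 by -0.41 (SE 0.096, adjusted p = 0.012). That call was lost without sh_scramble +DHT replicate 3 or sh_TMEFF2 +DHT replicate 2.

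SLC2A3, the GLUT3 carrier, was near the limit of detection, with 5 to 63 counts per library. It was at 0.86, 0.565 and 1.03 CPM in sh_scramble -DHT, at 2.22, 3.08 and 2.4 CPM in sh_scramble +DHT, at 0.961, 1.73 and 0.743 CPM in sh_TMEFF2 -DHT and at 0.231, 0.365 and 0.757 CPM in sh_TMEFF2 +DHT. The sh_scramble +DHT libraries stood above all others. The log2 fold change with DHT was 1.64 (SE 0.4, adjusted p = 0.0094) in sh_scramble and -1.33 (SE 0.44, adjusted p = 0.069) in sh_TMEFF2, with a difference of -2.97 (SE 0.6, adjusted p = 0.014). The fall in sh_TMEFF2 passed by DESeq2 (-1.33, adjusted p = 0.048) and without sh_TMEFF2 +DHT replicate 3 (-1.91, adjusted p = 0.041). With DHT the value between the lines was -2.49 (SE 0.43, adjusted p = 0.0018). The near-identical genes SLC2A3P1 and SLC2A14 held 49.8% and 18.0% as many counts as SLC2A3, so its values are uncertain, and with 1 column of each library in place of both the DHT call in sh_scramble and the interaction call were lost.

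**Figure D2:**
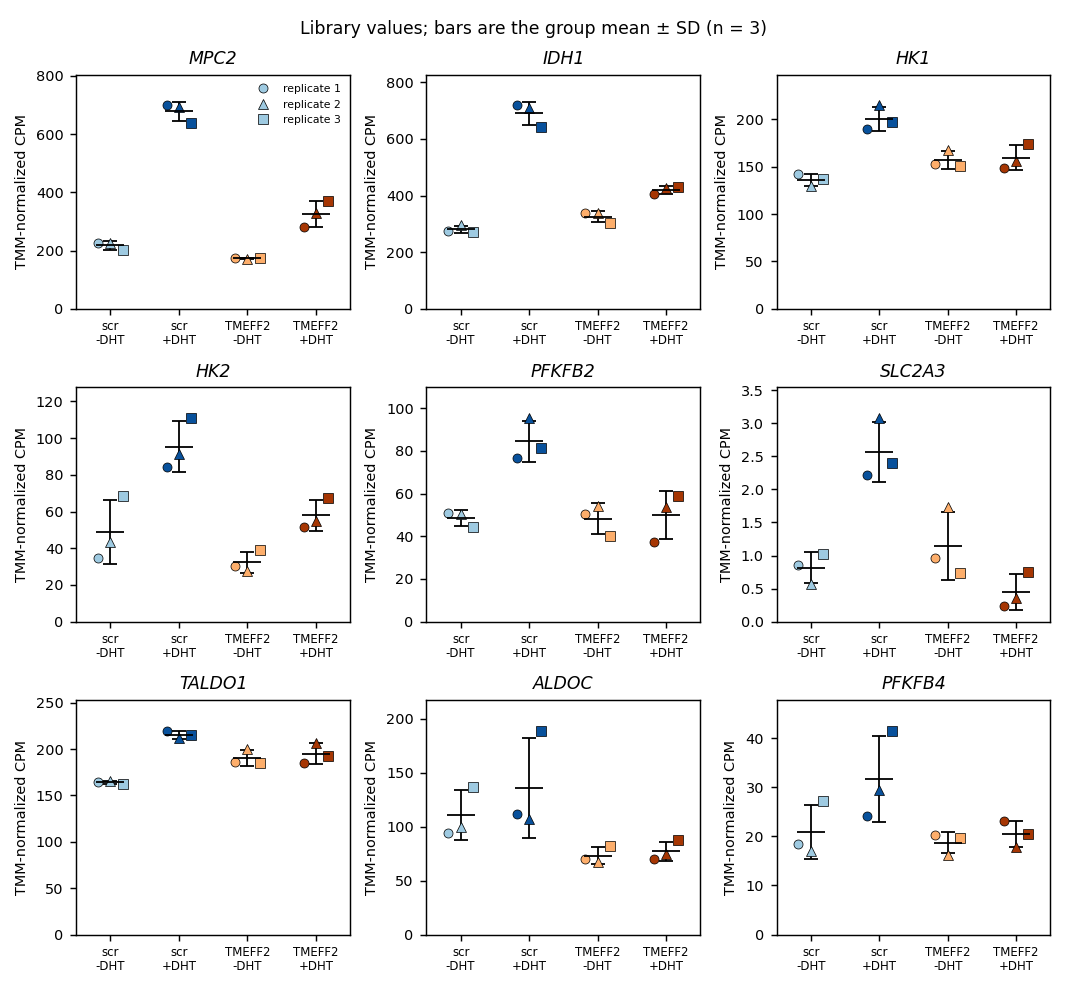
Level of 9 members in each of the 12 libraries (y axis, TMM-normalized CPM, from 0), by group on the x axis, with the symbol giving the replicate number and bars the group mean ± SD (n = 3). MPC2 and IDH1 in sh_scramble +DHT stand far above the other 3 groups, while HK2 and ALDOC have replicate 3 on top in each group.

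Among the genes that control glycolysis, PFKFB2 and PFKFB4 rose with DHT in sh_scramble. Both encode enzymes that make and break fructose 2,6-bisphosphate, the activator of phosphofructokinase. PFKFB2 was at 50.7, 50.3 and 44.2 CPM in sh_scramble -DHT, at 76.6, 95.4 and 81.3 CPM in sh_scramble +DHT, at 50.6, 54.2 and 40.2 CPM in sh_TMEFF2 -DHT and at 37.1, 53.6 and 58.7 CPM in sh_TMEFF2 +DHT. The sh_scramble +DHT libraries lay above all 9 others. Its log2 fold change was 0.80 (SE 0.16, adjusted p = 0.0022) in sh_scramble and 0.04 (SE 0.16, adjusted p = 0.9) in sh_TMEFF2. The difference of the changes was -0.76 (SE 0.22, adjusted p = 0.073), which did not pass. It did pass by DESeq2 (adjusted p = 0.015) and with no filter (adjusted p = 0.03). The difference between the lines with DHT was -0.76 (SE 0.16, adjusted p = 0.0055). YOD1, which shares exonic bases with PFKFB2 on the other strand, rose by 0.51 (adjusted p = 0.00012) with DHT in sh_scramble.

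PFKFB4 was at 18.5, 17 and 27.3 CPM in sh_scramble -DHT and at 24.2, 29.5 and 41.5 CPM in sh_scramble +DHT, and in sh_TMEFF2 at 20.2, 16.2 and 19.6 CPM and at 23.1, 17.8 and 20.4 CPM. The sh_scramble groups overlapped. The log2 fold change with DHT was 0.60 (SE 0.21, adjusted p = 0.048) and fell short of the threshold in 14 of 22 alternatives. Between the lines with DHT, PFKFB4 had -0.63 (SE 0.21, adjusted p = 0.055), and DESeq2 passed it as lower (adjusted p = 0.017). PFKFB3, of the same family, passed in no comparison.

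None of the 12 glycolytic enzymes passed as higher with DHT in either line, and at an unadjusted p of 0.05 in edgeR 2 were higher in sh_scramble and 0 in sh_TMEFF2. In sh_scramble their log2 fold changes ran from -0.34 to 0.39 with a median of 0.15, and 10 of 12 were above 0. PFKM, the muscle-type phosphofructokinase, fell from 217 to 252 CPM without DHT to 168 to 199 CPM with DHT in sh_scramble (-0.34, SE 0.08, adjusted p = 0.0075), and in sh_TMEFF2 its value was -0.16 (SE 0.08, adjusted p = 0.22). The platelet type, PFKP, had 0.39 (SE 0.35, adjusted p = 0.45) in sh_scramble. GAPDH, often used as a reference gene, had -0.01 in sh_scramble and -0.02 in sh_TMEFF2. The 12 enzymes together summed to 9134 to 11289 CPM in sh_scramble -DHT, 9718 to 12657 CPM in sh_scramble +DHT, 8865 to 9819.6 CPM in sh_TMEFF2 -DHT and 9472 to 9863 CPM in sh_TMEFF2 +DHT, so all 4 ranges overlapped.

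This count changed with the fit. ALDOA, PGK1, PGAM1 and ENO1 each passed as higher in sh_scramble in 2 of 22 alternatives. These were the fit with the replicate number as a block and the fit without sh_scramble -DHT replicate 3. With the block their adjusted p was 0.043, 0.026, 0.031 and 0.0092, in that order. ENO1 also passed in 2 of 22 in sh_TMEFF2, with the block among them (adjusted p = 0.022). There the 6 libraries of that comparison alone gave 0.25 (adjusted p = 0.049). Without sh_scramble -DHT replicate 3, 17 members rose with DHT in sh_scramble in place of 11, and the enzymes ALDOA (0.45, adjusted p = 0.03), PGK1 (0.54, adjusted p = 0.043), PGAM1 (0.27, adjusted p = 0.021) and ENO1 (0.40, adjusted p = 0.021), with LDHA (0.89, adjusted p = 0.0076) and PDK1 (1.06, adjusted p = 0.0023), were then among them.

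ALDOC, the brain-type aldolase, was the 1 enzyme of the chain that passed between the lines in the fit over all libraries. It was at 94.6, 99.6 and 137 CPM in sh_scramble -DHT and at 112, 107 and 189 CPM in sh_scramble +DHT, against 70, 67 and 81.9 CPM and 70.2, 74.8 and 87.3 CPM in sh_TMEFF2. Every sh_TMEFF2 library was below every sh_scramble library. With DHT the lines differed by -0.81 on the log2 scale (SE 0.2, adjusted p = 0.016), lost without sh_TMEFF2 +DHT replicate 1 or replicate 2. Without DHT it was -0.60 (SE 0.2, adjusted p = 0.2). ALDOA, the main aldolase of muscle, had -0.44 (SE 0.15, adjusted p = 0.057) between the lines with DHT and passed in 6 of 22 alternatives, among them DESeq2 (adjusted p = 0.016). PGK1 had -0.46 (SE 0.17, adjusted p = 0.095) and passed in 2 of 22. The ranges of both genes stood apart between the lines with DHT.

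LDHB, the heart-type lactate dehydrogenase subunit, rose slightly with DHT in sh_TMEFF2, from 274 to 314 CPM without DHT to 335 to 389 CPM with DHT (0.29, SE 0.071, adjusted p = 0.02), a call lost in 4 of 22 alternatives, and in sh_scramble its value was 0.14 (SE 0.071, adjusted p = 0.17). LDHA, the muscle-type subunit, had less precise values of 0.50 (SE 0.25, adjusted p = 0.16) in sh_scramble and 0.56 (SE 0.25, adjusted p = 0.16) in sh_TMEFF2. With the replicate number as a block both passed (adjusted p = 0.005 and 0.0063). The change of LDHA in sh_TMEFF2 also passed with the 6 libraries of that comparison alone (0.57, adjusted p = 0.045). SLC16A1, the MCT1 carrier of lactate and pyruvate, passed in no comparison.

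In the pentose phosphate pathway, 2 of 3 members rose with DHT in sh_scramble. TALDO1, the transaldolase, was at 164, 166 and 162 CPM in sh_scramble -DHT and at 219.6, 212 and 215 CPM in sh_scramble +DHT. In sh_TMEFF2 it was at 186, 199.8 and 185 CPM without DHT and at 185, 207 and 193 CPM with DHT. The step was clear in sh_scramble and the sh_TMEFF2 groups overlapped. The log2 fold change was 0.39 (SE 0.057, adjusted p = 0.00025) in sh_scramble and 0.04 (SE 0.056, adjusted p = 0.75) in sh_TMEFF2. The difference of the changes was -0.36 (SE 0.08, adjusted p = 0.023), lost in 7 of the 12 fits that each left out 1 library.

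PGD, the second NADPH-making enzyme of the pathway, ran from 154 to 176 CPM in sh_scramble -DHT and from 221 to 223 CPM in sh_scramble +DHT (0.43, SE 0.064, adjusted p = 0.00034). In sh_TMEFF2 its change was 0.17 (SE 0.064, adjusted p = 0.099), and the difference of the changes was -0.25 (SE 0.091, adjusted p = 0.15). TKT, the transketolase, had 0.11 in sh_scramble and 0.08 in sh_TMEFF2 and passed in no comparison.

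**Figure D3:**
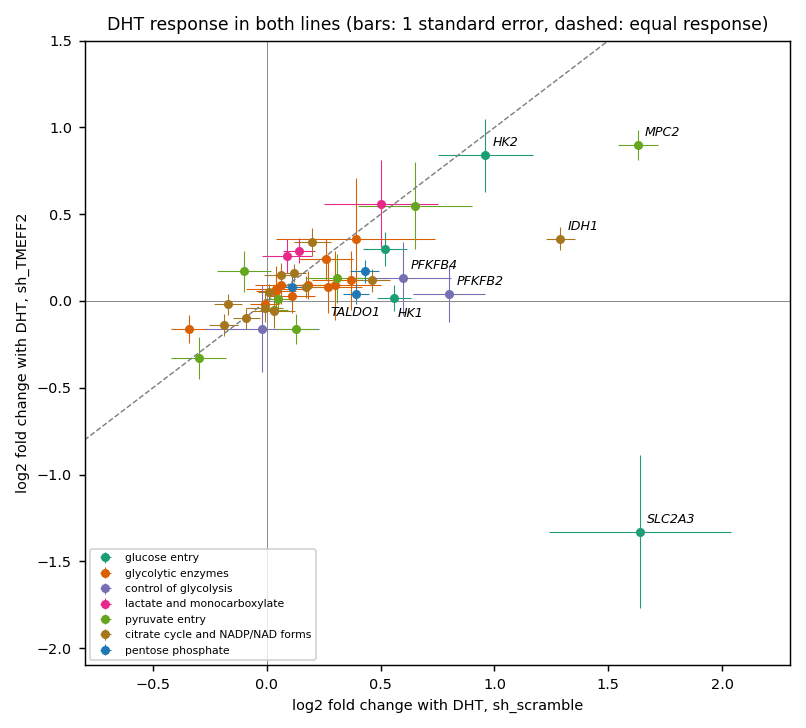
Log2 fold change with DHT in sh_scramble (x axis) against that in sh_TMEFF2 (y axis) for the 45 members tested, colored by step, with bars of 1 SE and a dashed line of equal change. MPC2 (1.63 and 0.90), IDH1 (1.29 and 0.36), HK1 (0.56 and 0.02), TALDO1 (0.39 and 0.04) and SLC2A3 (1.64 and -1.33) lie below the line and passed the test of the difference, and HK2 lies close to it.

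Within the groups, part of the members varied together by replicate number. Replicate 3 was the highest of the 3 libraries in all 4 groups for 11 of 45 members (24.4%), beside 3.11% of all genes tested. These were SLC2A1, HK2, GPI, PFKP, ALDOC, TPI1, PGK1, ENO1, PKM, LDHA and PDK1, a pattern noticed after the values were seen. Replicate 1 was the highest in all 4 groups for PDK2 and PDK3 (4.44% of members, 3.85% of all genes) and replicate 2 for 0 members (2.13% of all genes). LDHA was at 602, 649.6 and 1202 CPM in sh_scramble -DHT, at 961, 1019 and 1485 CPM in sh_scramble +DHT, at 525, 467 and 691 CPM in sh_TMEFF2 -DHT and at 825, 719 and 944 CPM in sh_TMEFF2 +DHT. In sh_scramble -DHT its replicate 3 exceeded 2 of the 3 +DHT libraries of the same line.

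Replicate 3 stood above the mean of replicates 1 and 2 by a log2 difference of 0.44 to 1.13 over the 4 groups for PFKP, 0.29 to 0.94 for LDHA and 0.22 to 0.97 for PDK1. Taken per gene over the 4 groups, the median difference was 0.241 for the 12 glycolytic enzymes, 0.012 for the 12 citrate cycle members and 0.0 for all genes tested. The variable genes sit mostly in the chain from hexose phosphate to lactate, and the pyruvate dehydrogenase kinase PDK1 goes with them. In a list of hypoxia-response genes without members of these pathways, 6 of 19 tested (31.6%) had the same pattern, namely BNIP3, DDIT4, ERO1A, P4HA1, VEGFA and VLDLR, and their part in the result was not tested. The SE of the log2 fold change with DHT in sh_scramble reached 0.348 for PFKP and 0.248 for LDHA.

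**Figure D4:**
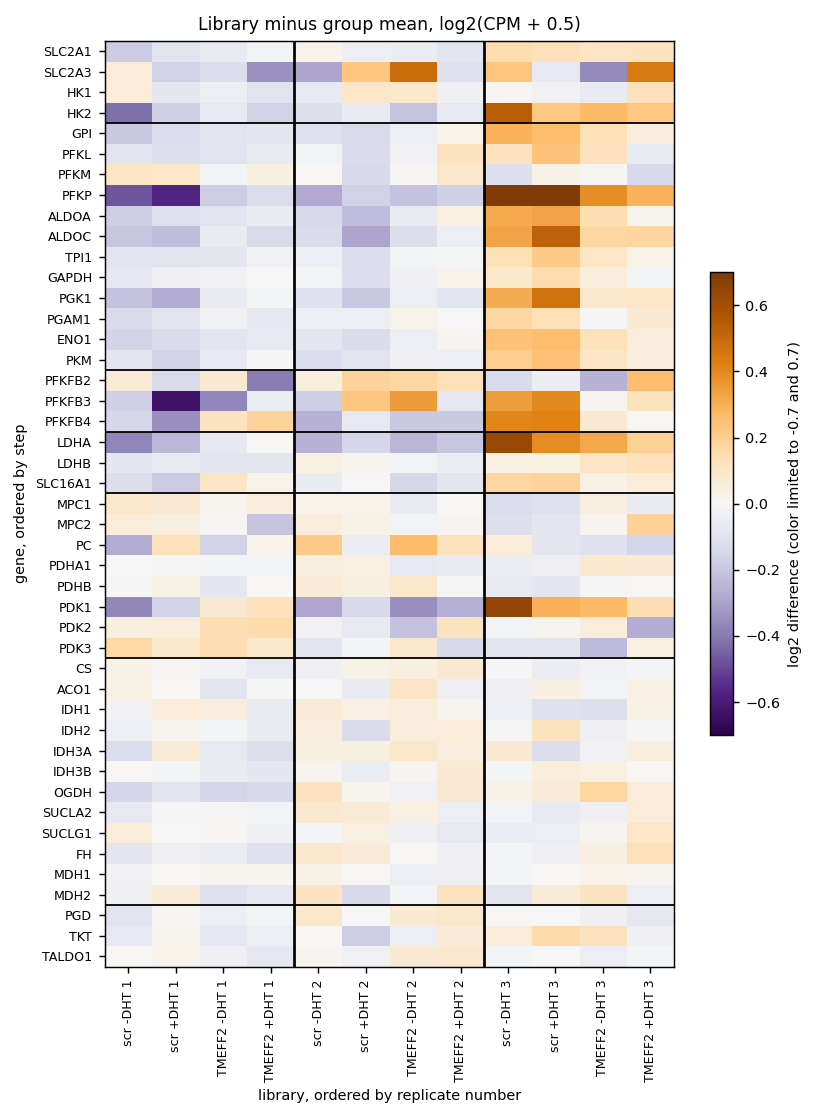
Difference of each library from its group mean in log2(CPM + 0.5) for the 45 members tested (rows, by step), with the 12 libraries ordered by replicate number (columns). The last 4 columns, replicate 3 of each group, are above the group mean for most glycolytic enzymes, LDHA and PDK1, while the citrate cycle rows stay pale throughout.

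LDHA and PGK1 (phosphoglycerate kinase) were chosen after their values were seen, as 2 variable genes with several matches to the core. Their first RefSeq windows read as follows, with ACGTG or CACGT in capitals, and with CACGTG, the E-box that MYC and other factors can bind and that holds both, in capitals as well.
LDHA promoter, chr11:18394313-18394612, plus strand: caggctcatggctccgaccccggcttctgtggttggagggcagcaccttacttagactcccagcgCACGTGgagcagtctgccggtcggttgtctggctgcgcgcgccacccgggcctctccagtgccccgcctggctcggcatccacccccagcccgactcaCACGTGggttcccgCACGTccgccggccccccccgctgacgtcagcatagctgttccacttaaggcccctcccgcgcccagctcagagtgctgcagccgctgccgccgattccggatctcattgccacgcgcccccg
PGK1 promoter, chrX:78103998-78104297, plus strand: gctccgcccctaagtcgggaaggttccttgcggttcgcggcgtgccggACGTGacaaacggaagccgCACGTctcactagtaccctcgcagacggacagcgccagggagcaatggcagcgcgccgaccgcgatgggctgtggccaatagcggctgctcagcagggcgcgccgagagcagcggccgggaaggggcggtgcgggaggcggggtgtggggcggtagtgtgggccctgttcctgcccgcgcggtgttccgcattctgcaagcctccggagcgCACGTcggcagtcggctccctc
The LDHA window shown holds 5 matches to the core over both strands, including 2 CACGTG that each count on both. The second LDHA window holds 0 matches. The PGK1 window holds 3 matches and no CACGTG. Over the 42 members with an entry, 22 of 72 windows (30.6%) hold ACGTG on either strand, beside 21.4% of all 35116 windows, and 8 (11.1%) hold CACGTG, beside 7.26%. Counted by gene and not by window, 18 of the 42 members have ACGTG in at least 1 window. Of the 11 members with replicate 3 on top, 8 have it and 3 do not, namely SLC2A1, ENO1 and PKM. The share by gene over all genes was not counted. A gene with more windows has more chances of a match, so these counts by gene cannot be set beside the shares of windows. The members without that pattern that have ACGTG are ALDOA, GAPDH, IDH1, PC, PDHB, PDK2, PDK3, PFKFB3, PFKM and PGD. A link between these letters and the replicate pattern was not tested.

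Other genes of the same pathways, from lists that excluded the 46, gave 50 of 58 that could be tested. With DHT in sh_scramble 16 of the 50 rose and 7 fell (14.4% and 12.6% of all genes), and in sh_TMEFF2 9 rose and 4 fell (7.84% and 5.21%). Between the lines 2 were higher and 0 lower (5 at an unadjusted p of 0.05 in edgeR) in sh_TMEFF2 without DHT (0.623% and 0.493% of all genes), and 5 were higher and 6 lower with DHT (6.93% and 9.09%). The interaction passed for 4, all lower in sh_TMEFF2 (3.29%). GLUD1, the glutamate dehydrogenase that feeds 2-oxoglutarate to the citrate cycle, rose from a mean of 168 to 384 CPM in sh_scramble (1.19, SE 0.092, adjusted p = 1.8e-06), and in sh_TMEFF2 from 171 to 206 CPM (0.27, adjusted p = 0.076). The difference was -0.92 (SE 0.13, adjusted p = 0.0015), close in size to that of IDH1. SLC2A12, the GLUT12 carrier, rose by 0.70 (SE 0.069, adjusted p = 1.2e-05) in sh_scramble and had 0.09 (adjusted p = 0.45) in sh_TMEFF2, with a difference of -0.61 (SE 0.097, adjusted p = 0.0034). ENO2, the neuronal enolase, fell by 0.93 (SE 0.23, adjusted p = 0.0089) in sh_scramble, and ADPGK, the ADP-dependent glucokinase, rose by 0.63 (SE 0.094, adjusted p = 0.00032).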

How the data were processed

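RNA of 12 LNCaP libraries in 4 groups of 3 was sequenced as 75 bp paired-end reads. The deposited estimated counts were made by the authors with Trimmomatic, kallisto 0.42.3 on the GRCh38 transcriptome and length-scaled summing to genes, in 2 columns per library. The 2 columns were summed per library and rounded. Genes were filtered with filterByExpr (minimum count 10, minimum total 15), scaled by TMM (factors 0.955 to 1.04) and fitted over all 12 libraries, 1 coefficient per group, with edgeR 4.0.16 (glmQLFit, glmQLFTest) in R 4.3.3. P-values were adjusted by Benjamini-Hochberg over 15419 genes, and SE is the absolute log2 fold change over the square root of F. The common biological coefficient of variation was 0.131. The code was tested on simulated data. The 46 genes, the further lists and their steps were chosen with earlier results of these data known. Every library is printed for members called at 1.5-fold in a comparison of groups or passing the interaction. Genes of the other lists are named where called with at least 5 CPM, at most 4 per list and comparison. Exceptions, all chosen after their values were seen, are LDHA, the hypoxia-response genes that shared its replicate pattern, and genes whose exons or sequence overlap a member. Alternatives were DESeq2 1.42.0, limma-voom (limma 3.58.1), other scaling and filters, the replicate number as a block, the libraries of 1 comparison alone, each library left out and, added after the data were seen, 1 column per library. The replicates measure the spread between treatments that share 2 transductions. IDH1-AS1, which overlaps IDH1, was not analysed here.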

Additional observations from a re-analysis of the deposited data

Results flagged for a closer look

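The change with DHT differed between the lines by the interaction term for 5 members, all in the direction of a lower response in sh_TMEFF2. On the log2 scale, sh_TMEFF2 minus sh_scramble, the difference was -0.93 for IDH1, -0.73 for MPC2, -0.53 for HK1, -0.36 for TALDO1 and -2.97 for SLC2A3. Among these, IDH1 and MPC2 passed in all 21 alternatives. HK1 did not pass with the first column of each library only, TALDO1 in 7 of 12 fits on 11 libraries, and SLC2A3 with either column alone. The mean level in sh_scramble +DHT was 690.2 CPM for IDH1 and 678 CPM for MPC2, and 420.1 and 326 CPM in sh_TMEFF2 +DHT. With 3 libraries per group, single libraries could not be tested as outliers.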

How the results depend on the processing

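Of 34 member results that passed, 17 stayed past the threshold in every alternative (22 for a comparison of groups, 21 for the interaction) and 0 changed sign. Of 191 that did not pass, 35 did under at least 1 alternative. Members higher with DHT in sh_scramble numbered 11, 10 to 17 with 1 library left out, and 2 were lower, 1 to 2 with 1 library left out, 4 with library size only, 1 with no filter and 1 with the first column of each library only. In sh_TMEFF2, 5 were higher, 8 by DESeq2 and 2 to 6 with 1 library left out (2 without sh_TMEFF2 -DHT replicate 1 or +DHT replicate 3), and 0 were lower, 1 by DESeq2 and 0 to 1 with 1 library left out. The 2 called there became 3 by DESeq2 and 1 to 2 with 1 library left out. Between the lines without DHT, 1 was higher, 2 by DESeq2 and 0 to 1 with 1 library left out, and 0 lower, 1 by DESeq2 and 0 to 1 with 1 library left out. With DHT, 0 were higher, 1 by DESeq2, 3 with library size only, 2 above a mean of 5 CPM and 0 to 1 with 1 library left out, and 10 lower, 5 to 12 with 1 library left out (5 without sh_TMEFF2 +DHT replicate 2). With library size only the split there was 3 higher and 9 lower. The interaction gave 5 lower, and 3 with the first column of each library only. The causes were not tested. Same-numbered libraries correlated at -0.002 to 0.169, not above 0.1 in every pair, so the numbers were not taken as pairs. With the replicate block 19 members were higher with DHT in sh_scramble, ALDOA, PGK1, PGAM1, ENO1, LDHA and PDK1 among them, 11 in sh_TMEFF2, ENO1, LDHA and PDK1 among them, 2 were lower in sh_TMEFF2 without DHT and 16 with DHT. Every library correlated best with its own number in 3 of 4 comparisons, all but the lines without DHT. Depth limited SLC2A3 and PDK4.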

Other observations

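The hypoxia-response list, 19 genes tested, also differed between the lines with DHT, where 7 were lower in sh_TMEFF2 and 2 higher, beside 9.09% and 6.93% of all genes, with a median log2 fold change of -0.38. With DHT 4 rose and 3 fell in sh_scramble (14.4% and 12.6% of all genes) and 1 rose and 1 fell in sh_TMEFF2 (7.84% and 5.21%), which is near those shares, and without DHT 0 differed between the lines in edgeR, with 1 higher and 8 lower at an unadjusted p of 0.05. NDRG1, a gene raised by androgen and by low oxygen, had a mean of 325 CPM in sh_scramble +DHT, where it rose with DHT (1.70, SE 0.22, adjusted p = 0.0001) and of 61.9 and 72.3 CPM in sh_TMEFF2 without and with DHT (0.22, adjusted p = 0.56), with a difference of -1.48 (SE 0.31, adjusted p = 0.016). VLDLR, a lipoprotein receptor, had 0.86 (adjusted p = 0.00049) and 0.10 (adjusted p = 0.71), with a difference of -0.76 (adjusted p = 0.041). VEGFA, the angiogenic growth factor, was lower in sh_TMEFF2 with DHT by -0.90 (SE 0.18, adjusted p = 0.0054). INSIG2, which restrains sterol synthesis, moved the other way, falling by 1.29 (SE 0.13, adjusted p = 1.1e-05) with DHT in sh_scramble and by 0.42 (adjusted p = 0.042) in sh_TMEFF2.

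SLC16A7, the MCT2 carrier of pyruvate and lactate, was higher in sh_TMEFF2 than in sh_scramble with DHT, at means of 20.7 and 8.36 CPM (1.31, SE 0.31, adjusted p = 0.012), against the direction of all 10 members that differed there. SLC2A4, the insulin-regulated GLUT4 carrier, was higher in sh_TMEFF2 without DHT, at means of 5.94 and 3.79 CPM (0.65, SE 0.14, adjusted p = 0.049).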
